A study of Drosophila melanogaster with 3 samples.

Results

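The binding sites described here lie at 10 axon guidance genes of Drosophila melanogaster. They are the semaphorin genes Sema1a, Sema1b and Sema2a, the Slit gene sli, the plexin genes PlexA and PlexB, the Robo genes robo1, robo2 and robo3, and fra. The genes were taken by name. A summit, the highest point of a peak, was assigned to a gene when it lay in the gene or within 5 kb on either side. This gave 20 of the 5357 summits in the authors' reproducible peak list, a share of 0.373%, and 102 of the 23597 summits in their relaxed list from the pooled replicates. The 10 genes are among 13945 protein-coding genes of the annotation. ChIP-seq, which sequences the DNA that comes down with a protein, was done on 3 biological replicates of whole embryos aged 0 to 24 h, males and females mixed. Embryos were of the strain Hr3-GFP, whose transgene insertion makes the nuclear receptor Hr3, also named Hr46, fused to GFP at the C-terminal end. Chromatin was precipitated through the GFP tag per one label, while another lists Hr3 as the antibody. There is 1 group and no second condition. The labels used here do not state which promoter drives the transgene or whether untagged Hr3 is also made. In whole embryos, strong binding in few cells and weak binding in many cannot be told apart.

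Growing axons steer by reading attractive and repulsive cues. Semaphorins are cues that act mainly through plexins: in flies the transmembrane Sema1a binds PlexA, and the secreted Sema2a binds PlexB. Slit is secreted by glia at the midline of the nerve cord, and Robo receptors on axons respond to it by turning away, which sets which axons cross and how far from the midline they run. Frazzled, the product of fra, is the fly counterpart of the vertebrate receptor DCC and mediates attraction to Netrins. Hr3 is an orphan receptor of the ecdysone cascade, counterpart of the mammalian ROR receptors, and embryos that lack it have been described with defects of the nervous system.

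The windows below, 100 bp to either side of a summit, show the DNA under the summits that the results turn on: the promoters of both plexin genes, and the promoter and the strongest intronic summit of Sema1a. They are from the RefSeq sequence of the dm6 assembly and run 5′ to 3′ on the strand of the gene, with the summit in the middle of the 201 bases. They cover chr4:1027162-1027362 for PlexA and chr4:43764-43964 for PlexB, both on the minus strand. For Sema1a they cover chr2L:8541970-8542170 and chr2L:8575063-8575263 on the plus strand. Capitals mark elements that were searched, except in the intronic window, where they mark the arms of an inverted repeat.
PlexA promoter: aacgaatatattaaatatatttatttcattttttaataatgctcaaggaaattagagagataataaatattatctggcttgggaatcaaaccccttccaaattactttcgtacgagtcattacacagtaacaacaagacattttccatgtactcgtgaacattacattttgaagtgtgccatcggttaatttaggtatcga
PlexB promoter: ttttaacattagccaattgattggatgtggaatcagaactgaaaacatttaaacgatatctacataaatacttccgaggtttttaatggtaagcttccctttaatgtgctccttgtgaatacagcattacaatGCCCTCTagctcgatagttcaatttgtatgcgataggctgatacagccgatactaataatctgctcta
Sema1a promoter: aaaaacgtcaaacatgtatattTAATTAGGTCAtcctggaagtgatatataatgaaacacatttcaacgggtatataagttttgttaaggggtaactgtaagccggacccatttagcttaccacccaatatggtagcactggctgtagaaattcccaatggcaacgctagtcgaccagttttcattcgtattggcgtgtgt
Sema1a intron 4: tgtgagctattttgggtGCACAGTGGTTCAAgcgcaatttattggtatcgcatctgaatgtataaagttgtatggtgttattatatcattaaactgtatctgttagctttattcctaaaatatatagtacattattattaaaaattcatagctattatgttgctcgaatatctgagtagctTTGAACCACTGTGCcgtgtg

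The Sema1a promoter was the only one of the 20 member summits with a ROR response element (RORE), the site that ROR-type receptors bind as monomers, within 100 bp. It occupies bases 24 to 33 of the Sema1a promoter window, 154 to 145 bp upstream of the transcription start site (TSS), which is base 178. Its first bases overlap a match to TAATTA at bases 23 to 28, and its last bases are the receptor core AGGTCA. A RORE was found within 100 bp of 1.29% of all 5357 reproducible summits, and AGGTCA at 4.72%. AGGTCA was at 2 member summits, the other being an intronic summit of sli. The alternative core GGGTCA, present at 3.42% of all summits, and the core promoter element TATCGATA, at 3.92%, were at none of the 20. TAATTA was at 4 of the 20, against 20.5% of all. GAGAGAG was at 1, in an intron of sli, against 2.99% of all. The core of the CTCF site was searched in 4 spellings, which are AGATGGC, in another form AGAGGGC, in the next AGGTGGC and in the last AGGGGGC. It was at 3 of the 20, against 7.73% of all. In the PlexB window it lies on the opposite strand at bases 134 to 140, 53 to 47 bp upstream of the TSS at base 187. Both strands were searched throughout, and a match is a description of the letters alone.

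The Sema1a intron window holds the same 14 bases in opposite orientation near its ends, starting at bases 18 and 182. No other member summit had an inverted repeat longer than 9 bases in its window, and the median over all 5357 summits was 8. Repeats of 14 bases or more were present in 21 windows, 0.392% of all. This feature was singled out after it was seen. None of the 20 windows overlapped an annotated transposable element, which 0.616% of all windows did. The GC content of the member windows ran from 27.4% to 44.8% with a median of 33.8%, against a median of 33.3% for all reproducible summits.

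Peak strength is given below as the authors' signal value in the pooled list, and per replicate as a relative signal. The relative signal is a replicate's signal at the reproducible summit divided by that replicate's median over all reproducible summits, so that 1 is a typical site. Those medians were 40.4, 81.2 and 68.6 in replicates 1, 2 and 3, from 25578, 27006 and 23582 relaxed peaks. Reads were not analysed here, and the depth of each replicate is therefore unknown. All coordinates are on dm6 and 1-based.

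Of the 10 genes, 8 had at least 1 reproducible summit, and Sema1b and robo3 had none. Among all protein-coding genes 53.2% had a summit by the same rule, and 69.6% of the 2226 genes at least as long as robo1, the shortest of the 10 at 8447 bp. The 10 genes are long, with a median of 34207 bp against 2166 bp for all protein-coding genes. A summit lay at the gene's own promoter, within 500 bp of one of its TSSs, in PlexA, PlexB, Sema1a and fra. That is 4 of 10, where 23.9% of all protein-coding genes and 31.1% of the longer ones had one. A list of the same length was rebuilt without replicate 1, by ranking the pooled relaxed peaks on mean relative signal in replicates 2 and 3. In it the own promoters of PlexB and fra are lost and 2 remain, whereas the lists rebuilt without replicate 2 or 3 keep the 4. The pooled peaks still come from all 3 replicates, and the ranking replaces the authors' choice of reproducible peaks. Sema1a, Sema2a, sli and fra had summits in introns outside promoters, again 4 of 10, where the shares were 6.78% of all genes and 34.4% of the longer ones. Read against genes of at least that length, each of the 3 counts is close to the background.

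**Figure D1:**
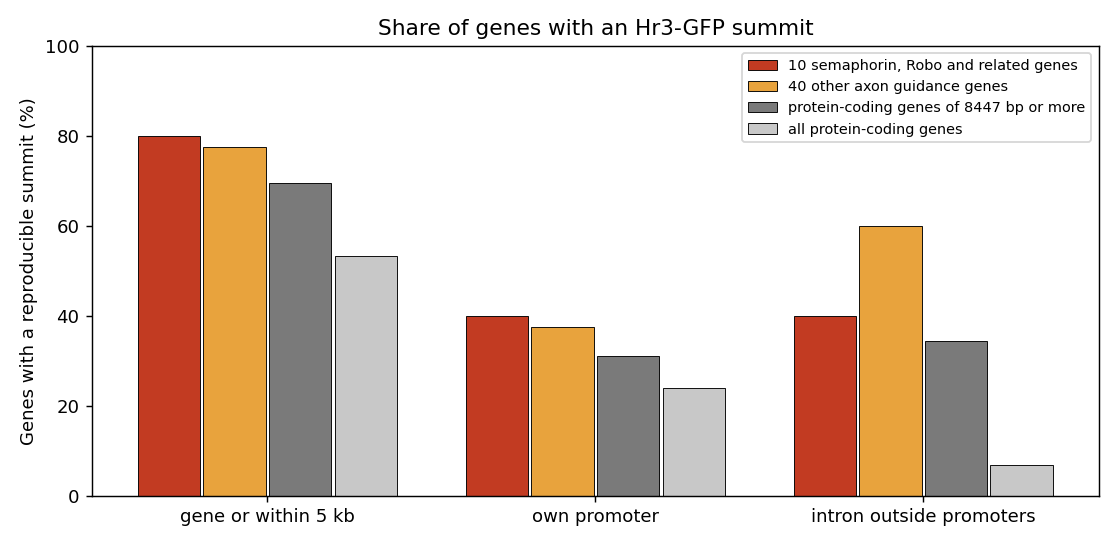
Share of genes with a reproducible Hr3-GFP summit, in percent, for 3 definitions of place on the x axis. Bars stand for the 10 genes, 40 other axon guidance genes, protein-coding genes of 8447 bp or more and all protein-coding genes. For introns the shares are 40%, 60%, 34.4% and 6.78%, and the groups were not matched for gene length beyond the 8447 bp limit.

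Among the ligand genes, Sema1a carried the most summits. It encodes a transmembrane semaphorin that repels axons bearing PlexA and can itself act as a receptor. The gene (FBgn0011259) spans 129895 bp at chr2L:8542147-8672041 and held 6 of the 20 summits, 0.429 per 10 kb with its flanks, against a median of 0.402 over the longer protein-coding genes. The strongest summit lay in intron 4 of 22, which is 66730 bp long, at chr2L:8575050-8575266, and its relative signal was 2.23, 1.81 and 2.32 in replicates 1, 2 and 3, a mean of 2.12 ± 0.273 (SD, n = 3). It ranked 753 of the 5357 reproducible peaks, and it was above the typical site in all 3 replicates. Its nearest TSS was that of another gene, 4275 bp away, while the nearest Sema1a TSS was 31833 bp away. The promoter summit lay 77 bp upstream of the TSS at chr2L:8541840-8542299, with 0.800, 0.642 and 1.13 and a mean of 0.859 ± 0.252 (SD, n = 3). The TSSs of tRNA:Asp-GTC-1-4 and tRNA:Asp-GTC-1-5, genes for aspartate tRNAs, were 447 and 309 bp from the same summit, so this peak is not assigned to Sema1a alone. The other 4 intronic summits had means from 0.482 to 0.799. Of these, the weakest was at chr2L:8633968-8634427 in intron 5, with 0.391, 0.585 and 0.472. Among the same 4, only that at chr2L:8552427-8552886 had a Sema1a TSS as its nearest.

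For sli, which encodes the midline repellent Slit, the binding was intronic. The gene (FBgn0264089) lies at chr2R:15869495-15922118 on the minus strand. Its strongest summit was in intron 3 of 20 at chr2R:15886957-15887416, 3730 bp downstream of the nearer of its 2 TSSs, with 1.72, 1.38 and 1.41 and a mean of 1.50 ± 0.185 (SD, n = 3). A second lay in intron 1 at chr2R:15919647-15920106, 2241 bp downstream of the other TSS, with 1.05, 0.611 and 0.890 and a mean of 0.851 ± 0.223 (SD, n = 3). The stronger of these exceeded the weaker in every replicate. The other summit of the locus was 250 bp beyond the 3′ end of sli and 98 bp upstream of the TSS of Rif1, the gene of a replication timing factor, with a mean of 0.834 ± 0.156 (SD, n = 3). The own promoter of sli had a relaxed peak, 261 bp upstream of the TSS, which was found in replicate 2 alone with 0.400.

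The other semaphorin genes had little. Sema2a (FBgn0011260, chr2R:16500178-16533459), the gene of a secreted semaphorin, had a single summit, in intron 2 of 14 at chr2R:16505257-16505716, with 0.509, 0.508 and 0.776 and a mean of 0.598 ± 0.154 (SD, n = 3). Its peak was among the 5357 strongest in replicate 3 and not in replicates 1 and 2. Sema1b (FBgn0016059, chr2R:17672839-17683499), the gene of a second transmembrane semaphorin, had no reproducible summit and 6 weaker ones. The strongest of the 6 lay 400 bp downstream of a Sema1b TSS and was seen in replicate 2 alone, with 0.401.

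Of the receptor genes, PlexA had the strongest peak of all 20. PlexA (FBgn0025741, chr4:1009895-1027101, minus strand) encodes the receptor of the transmembrane semaphorins. Its summit lay 161 bp upstream of the TSS at chr4:1027128-1027440, with 3.22, 3.14 and 2.58 in replicates 1, 2 and 3, a mean of 2.98 ± 0.349 (SD, n = 3). It ranked 368 of 5357, and its lowest replicate exceeded the highest replicate of every other member summit. PlexB (FBgn0025740, chr4:32478-43778, minus strand), the receptor of Sema2a, had a summit 86 bp upstream of its TSS at chr4:43634-44093, with 0.900, 0.588 and 0.514 and a mean of 0.668 ± 0.205 (SD, n = 3). Each plexin gene thus had 1 reproducible summit just upstream of its only TSS, and the values of PlexA and PlexB did not overlap. Both lie on chromosome 4, which held 21 reproducible summits: the PlexA peak was the second strongest of these and the PlexB peak the weakest. Own promoters were bound in 13 of 80 protein-coding genes there, 16.25%.

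fra, the Netrin receptor gene (FBgn0011592, chr2R:12529053-12564184), carried a cluster of summits in its large intron 1 of 26746 bp. The strongest, at chr2R:12543695-12543920, was 14728 bp downstream of the TSS, with 2.13, 2.28 and 2.18 and a mean of 2.20 ± 0.0790 (SD, n = 3), the smallest coefficient of variation of the 20 at 3.59%. A second at chr2R:12540573-12541032 had 1.16, 1.43 and 1.81, a mean of 1.47 ± 0.328 (SD, n = 3). The third at chr2R:12538175-12538634 had 0.993, 0.643 and 0.693, a mean of 0.776 ± 0.189 (SD, n = 3). In these values the summit farthest downstream was the strongest in every replicate and the one nearest the fra TSS the weakest. All 3 had the TSS of the same other gene as their nearest. From the strongest to the weakest they lay 1908, 4886 and 7284 bp upstream of it. Their order along fra is therefore also an order of distance to that TSS. The promoter summit, 78 bp upstream of the TSS, had 0.913, 0.570 and 0.439 and a mean of 0.640 ± 0.245 (SD, n = 3), the lowest mean of the 10 receptor summits. With 0.886 summits per 10 kb of locus, fra exceeded the 0.402 median of the longer genes. The density was higher at robo1, with 1.08, above that median also at sli, PlexB and Sema1a, and below it at the remaining members. In all 3 replicates, 2 of the 4 fra summits were above the typical site.

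None of the Robo genes had a reproducible summit inside the gene. At robo2 (FBgn0002543, chr2L:1380086-1420453, minus strand), 2 intergenic summits lay upstream of the TSS. The nearer had 1.30, 1.16 and 1.32 and a mean of 1.26 ± 0.0858 (SD, n = 3), and the farther, 4586 bp from the TSS at chr2L:1424809-1425268, had 0.788, 0.978 and 0.650 and a mean of 0.805 ± 0.164 (SD, n = 3). The nearer one was higher in each replicate, and the farther one had the TSS of another gene as its nearest. At robo1 (FBgn0005631, chr2R:22692524-22700970, minus strand), both summits were at promoters of neighbours beyond its 3′ end. The first was 215 bp downstream of the TSS of Ppa and 323 bp upstream of that of lncRNA:CR44762, with a mean of 0.758 ± 0.166 (SD, n = 3). The second was 42 bp upstream of the TSS of lncRNA:CR44764, with 1.09, 0.722 and 0.474, a mean of 0.762 ± 0.309 (SD, n = 3) and the largest coefficient of variation of the 20, 40.6%. These are counted for robo1 by distance alone. robo3 (FBgn0041097, chr2L:1256417-1296596) had 4 relaxed summits and none at its promoter. The strongest of these had a signal of 55.1 in the pooled list, where the reproducible list begins at 105.4.

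**Figure D2:**
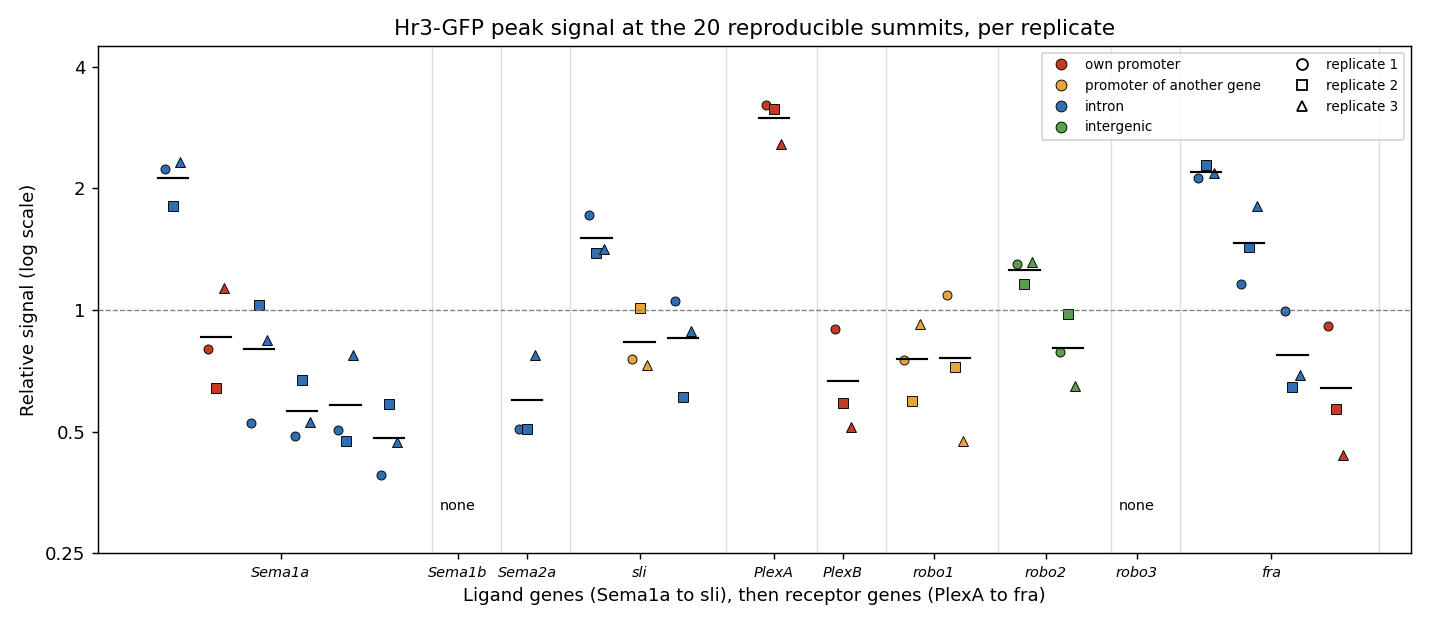
Relative signal (y axis, log scale) at each of the 20 reproducible summits, grouped by gene on the x axis with ligand genes left of receptor genes; circles, squares and triangles are replicates 1, 2 and 3, black bars are means, and colours give the place of the summit. PlexA, with replicates from 2.58 to 3.22, stands above all others, and 14 of the 20 summits have means below the dashed line at 1, from 0.482 to 0.859.

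By place, the 20 summits were 7 at promoters, 11 in introns and 2 between genes, and none was in a coding exon or a UTR. Promoters thus held 35.0% and introns 55.0% of them, against 54.2% and 34.9% of the 5046 reproducible summits in or within 5 kb of any protein-coding gene. Of the same 5046, 9.10% lay between genes, 0.139% in coding exons and 1.03% in UTRs, so the member counts for these places are near the background. The 5046 belong to genes of any length, with a median of 2166 bp over all protein-coding genes against 34207 bp over the 10. Shares by place were not computed for longer genes alone, so the difference for promoters and introns is not read as a trait of these genes. Of the 7 promoter summits, 4 were at the gene's own promoter and 3 at those of Rif1, Ppa and lncRNA:CR44764. Among each replicate's own 5357 strongest peaks, promoters held 45.0%, 36.8% and 27.8% of the member summits in replicates 1, 2 and 3, a mean of 36.5% ± 8.62 (SD, n = 3). Own promoters of 4, 4 and 2 members were bound there. In the list rebuilt without replicate 1 the promoter share was 23.5%. For these lists the shares over all peaks or all genes were not computed, so the values have no background beside them.

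**Figure D3:**
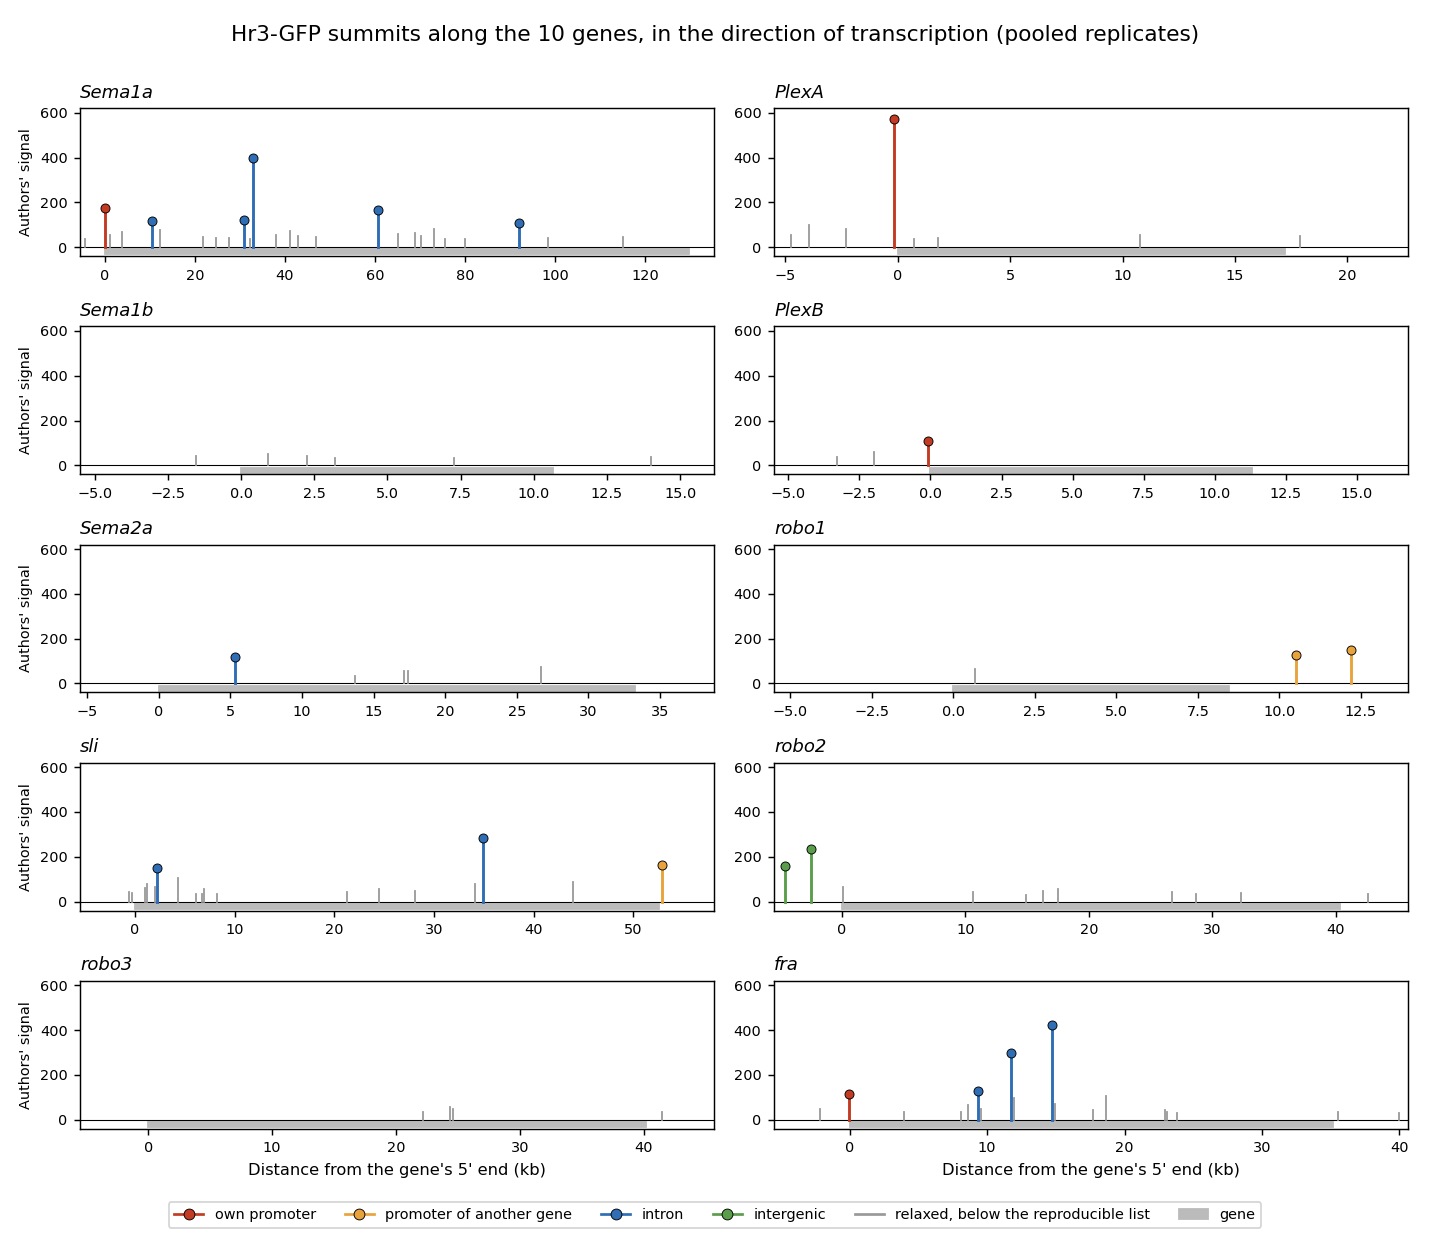
Summits along each gene, in kb from the gene's 5′ end (x axis) and with the authors' signal in the pooled list (y axis). Coloured stems are the 20 reproducible summits, grey lines the 82 relaxed summits below that list and grey bars the genes; PlexA and PlexB have 1 coloured stem each at the 5′ end, fra has 3 inside the gene beside that at its 5′ end, and Sema1b and robo3 have none.

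The medians of promoter and intronic summits at these genes lay close together. For promoters the median relative signal was 0.900, 0.642 and 0.731 in replicates 1, 2 and 3, against 0.993, 0.670 and 0.844 for introns. The log2 ratio of the medians was -0.14 ± 0.07 (SD, n = 3), below 0 in all 3 replicates, and -0.10 ± 0.05 (SD, n = 3) with own promoters alone, a comparison chosen after seeing the data. Over all protein-coding loci the same ratio was 0.24 ± 0.03 (SD, n = 3), above 0 in all 3. The ranges overlapped widely at the 10 genes: mean relative signals ran from 0.640 to 2.98 at promoters and from 0.482 to 2.20 in introns. With a replicate's peak matched by a summit within 100 bp, in place of a peak that covers the reproducible summit, the ratio was 0.10, so its direction depends on that choice. A test between samples cannot be made with 1 group, and summits are not replicates, so no p-value is given.

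Ligand and receptor genes had 10 summits each. The median relative signal of the ligand summits was 0.641, 0.656 and 0.810 in replicates 1, 2 and 3, against 1.04, 0.850 and 0.809 for the receptor summits. The log2 ratio was -0.70, -0.37 and 0.00, a mean of -0.36 ± 0.35 (SD, n = 3), about as large as its spread. It was 0.25 with only the strongest summit of each gene, 0.22 with flanks of 10 kb and -0.08 without Sema1a. With the 3 summits at promoters of other genes left out, a choice made after seeing the data, it was -0.67, so its sign and size depend on which summits are counted. Mean relative signals ran from 0.482 to 2.12 at ligand genes and from 0.640 to 2.98 at receptor genes. By place, own promoters were bound in 1 of 4 ligand genes and in 3 of 6 receptor genes, and introns in 3 of 4 ligand genes and 1 of 6 receptor genes. The 3 intron-bound ligand genes span 33282 to 129895 bp, and Sema1b 10661 bp. Of the receptor genes, PlexA, PlexB and robo1 span 8447 to 17207 bp and fra 35132 bp. The genes robo2 and robo3 span 40368 and 40180 bp without a reproducible intronic summit. Whether gene length accounts for the split by role was not tested. Over the longer protein-coding genes the shares were 31.1% for own promoters and 34.4% for introns, and over all protein-coding genes 23.9% and 6.78%. In the list rebuilt without replicate 1, own promoters were bound in 1 of 4 ligand genes (Sema1a) and 1 of 6 receptor genes (PlexA).

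**Figure D4:**
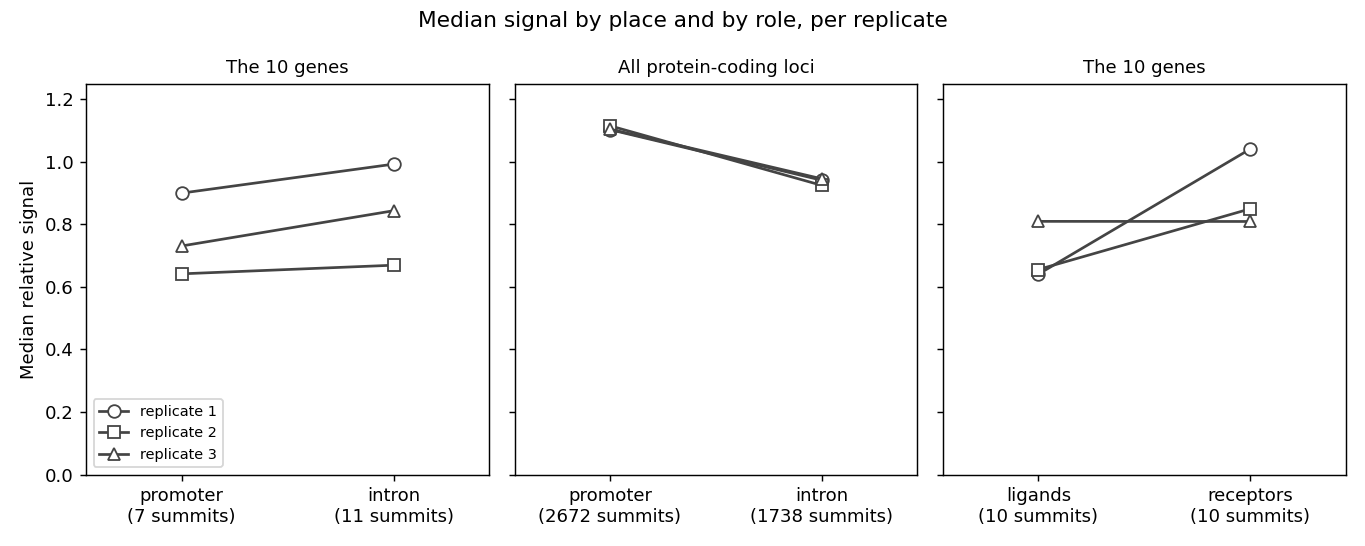
Median relative signal (y axis, starting at 0) per replicate: promoter against intronic summits at the 10 genes (left) and at all protein-coding loci (middle), and ligand against receptor summits (right). Circles, squares and triangles are replicates 1, 2 and 3; at the 10 genes promoter medians lie below intron medians in each replicate, while over all loci they lie above.

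Of the 20 member sites, 14 lay below the median of the reproducible list. The pooled signal had a median of 155.1 over the 20 summits, against 182.4 over the whole list, and 6 of the 20 ranked in its upper part: those of PlexA, 2 of fra, and 1 each of Sema1a, sli and robo2. The log2 ratio of the median relative signal of the 20 to that of all summits at protein-coding loci was -0.34 ± 0.20 (SD, n = 3). All 20 had a relaxed peak in each of the 3 replicates, as did 5257 of all 5357 reproducible summits, so this is near the background. A peak covering the summit was among the 5357 strongest of all 3 replicates for 12, of 2 for 4, and of 1 for 4. The replicates placed the summit a median of 14.5 bp from the reproducible one, and at most 137 bp away. Neither the counts among the strongest peaks nor these distances were computed over all reproducible summits, so they have no background. The median coefficient of variation over replicates was 22.1%, against 15.8% for the 4949 reproducible summits at protein-coding loci with a signal in each replicate.

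Below the reproducible list, the relaxed peaks of the pooled replicates added 82 weaker summits. At least 1 relaxed summit was present for each of the 10 genes, where 86.2% of protein-coding genes have one, and this is near the background. Own promoters then counted 8 of 10, with Sema1b, sli, robo1 and robo2 added, against 47.5% of all protein-coding genes. For relaxed peaks this share was not computed over longer genes alone, so gene length is not accounted for. Of the 82, 33 were found in all 3 replicates, 22 in 2, 26 in 1 and 1 in none. In at least 1 replicate, 4 of them lay under the same peak as a reproducible summit of fra or sli. The weak robo2 promoter peak, 114 bp downstream of the TSS, was among the 33, with 0.396, 0.356 and 0.257. That of robo1 had 0.599 and 0.195 in replicates 1 and 2 and no peak in replicate 3. The cutoff fell close to several summits: PlexB and an intronic Sema1a summit were just inside with pooled signals of 108.3 and 106.8, and intronic summits of sli and fra just outside with 105.0 and 104.9. Of the weak summits, 53 were intronic, 12 at promoters and 4 in coding exons. Places were not counted over all pooled relaxed summits, so these counts have no background beside them.

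Across 40 other axon guidance genes, from a list written by hand, 31 had a reproducible summit in the gene or within 5 kb, or 77.5%. Own promoters were bound in 15, or 37.5%, and introns in 24, or 60%. For locus, own promoter and intron, the shares were 69.6%, 31.1% and 34.4% of the longer protein-coding genes. Over all protein-coding genes they were 53.2%, 23.9% and 6.78%. The 40 genes have a median length of 33298 bp, close to that of the 10. The longer protein-coding genes are only bounded below, at 8447 bp, and their median length was not computed. Gene length is thus not fully accounted for, and the intron share is not read as a trait of axon guidance genes. The strongest peak by the authors' signal was in the flank of ena, the gene of the actin regulator Enabled, with a mean relative signal of 3.16 ± 0.347 (SD, n = 3), but it lay at the promoter of CG15111 and CG15118. At unc-5, which encodes a repulsive Netrin receptor, the promoter peak had 2.67 ± 0.425 (SD, n = 3). Intronic peaks of comm3, of the commissureless family, of hts, the adducin gene, and of Fas3, the gene of the adhesion protein Fasciclin 3, had 2.62 ± 0.0768, 2.41 ± 0.0438 and 2.45 ± 0.370 (SD, n = 3).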

How the data were processed

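ChIP-seq peaks of 3 replicates of 1 group were analysed. Relaxed peaks were called for every replicate and for the 3 pooled, each against a control, and a reproducible list was made from them by irreproducible discovery rate (IDR), per the deposited text files. The signal of a peak and its -log10 q value are the authors' deposited values, in which the q value is the same for every reproducible peak and was not used for ranking. Sonicated fragments were of 200 to 800 bp, per the labels. Aligner, caller and IDR threshold: not given in the sources used here. The control library was not analysed here.

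Only the dm6 lists were used. Peaks and Ensembl release 115 genes (BDGP6.54) were checked to end within the arms of the RefSeq dm6 genome. A summit is the peak start plus the summit offset. Places were assigned in the order promoter (any TSS within 500 bp), coding exon, UTR, other exon, intron, intergenic, with transposable elements left out of the annotation. The members and lists were chosen with earlier results of these data known. Named genes were all members, genes whose TSS or body holds a member summit, and the 5 other axon guidance genes with the strongest peak. No test was made, as there is 1 group, and shares stand beside those of all protein-coding genes. SDs are over the 3 biological replicates. Calculations used Python 3.11.15, NumPy 2.4.6, pandas 2.3.3, pyfaidx 0.9.0.4 and matplotlib 3.10.9, and the functions were tested on simulated data. The alternatives were other flanks, promoter widths, peak lists and ways of matching peaks (2 of them added after seeing the data), and leaving out each replicate, for which the list was rebuilt as the 5357 pooled relaxed summits with the highest mean relative signal in the other 2 replicates. The sequence and position of 1 summit are not reported here.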

Additional observations from a re-analysis of the deposited data

How the results depend on the processing

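The depth is unknown, and with 3 replicates of 1 group the values carry their spread alone. Of 86 recomputed values of 14 results, 30 are means with 1 of the 3 replicates left out, which cannot move by an SD of the same 3 values and so say nothing of stability. Of the other 56, 38 moved by less than the spread between replicates, or, for counts, less than 1.5 times. The 8 bound members became 4 with no flank and 5 among peaks at or above the median signal, and ran from 7 to 8 when a replicate was left out. The 4 bound own promoters became 1 in that upper part of the list and 8 with all pooled relaxed peaks, and ran from 2 to 4 with a replicate left out. The 20 summits became 11 with no flank, 6 in the upper part and 102 with all pooled relaxed peaks. The promoter share of 35.0% became 0% with no flank, which removes all member promoter summits, 16.7% in the upper part and 18.6% with all pooled relaxed peaks, and ran from 23.5% to 36.8% with a replicate left out. The promoter over intron log2 ratio of -0.14 became -0.41 with flanks of 10 kb and reversed to 0.10 with replicate summits matched within 100 bp. On percentile ranks the difference of medians was -7.23 percentage points. The ligand over receptor log2 ratio of -0.36 became -1.16 with no flank, and reversed to 0.22 with flanks of 10 kb and to 0.25 with the strongest summit per gene. With no flank, fra is the only receptor gene that keeps a summit, so that value sets Sema1a, Sema2a and sli against fra alone. The cause of these shifts was not tested. With replicate summits matched within 100 bp, the mean relative signals of the strongest summits of the 8 bound members shifted by at most 0.0442. The promoter over intron ratio has no value without flanks, as no promoter summit is left. No paired analysis was possible because the samples form 1 group, with no second group to pair them with; the ratios of medians are taken within each replicate.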
